A study of Mus musculus with 10 samples.

Results

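The trimethyl mark on lysine 27 of histone H3 (H3K27me3) was compared between undifferentiated cells of 3 mouse embryonic stem (ES) cell lines, XT67E1, LF2 and E14. The comparison uses 3 of the 10 chromatin immunoprecipitation libraries of the series, chosen by their labels, 1 library per line. XT67E1 carries the strain label C3H/Pgk*129, and LF2 and E14 carry the label 129/Ola. It is known that E14 is male, and that the other lines are female. All 3 were kept undifferentiated in serum medium with LIF on gelatin, and their chromatin was precipitated with the same H3K27me3 antiserum, named in the labels as coming from T. Jenuwein, after shearing by sonication, and read on Illumina instruments. The 10-day embryoid bodies (EBs) of the same lines, grown after LIF was withdrawn, served as a further library per line. The 4-day all-trans retinoic acid (atRA) library and the H3K4me3 libraries exist for XT67E1. No expression data were used, so the identity of the cells was not checked against marker genes. Line, strain, sex, passage and the strength of the pull-down cannot be told apart with 1 library per line.

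H3K27me3 is placed by Polycomb repressive complex 2 through its catalytic subunit Ezh2 or Ezh1, and it marks genes that are silent or held at a low level. In ES cells the mark covers promoters of developmental regulators, many of which also carry H3K4me3, a mark of active promoters, in the state called bivalent. The Hox gene clusters, whose transcription factors pattern the body axis, are among the longest Polycomb domains known in these cells, where the mark spreads over whole clusters.

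The undifferentiated libraries held 8380007 reads for XT67E1 and 4531733 reads each for LF2 and E14, of which 8021002, 4363886 and 4411780 lay on the 19 autosomes. The midpoint of each deposited 200 bp interval was counted in 10 kb bins of the mm9 build, and counts were scaled to reads per 1000000 autosomal reads (RPM). The median bin held 28 reads in XT67E1, 14 in LF2 and 16 in E14. Intervals given below are 95% intervals for counting error only. A bin was called rich in H3K27me3 where it held at least 3 times the median count of its library. No mm9 gene annotation was used here, so a region is named by its mm9 coordinates, with the first base of a chromosome as 1, and no bin is assigned to a gene.

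The lines differed in how much of the autosomal genome was rich, and their rich sets were nested to a large degree. LF2 had 15869 rich bins, 6.69% of the bins that held a read in that library or another. XT67E1 had 8170 (3.45%) and E14 had 6089 (2.57%). The rich bins held 24.6% of autosomal reads in LF2 (Wilson interval 24.56 to 24.64), 12.5% in E14 (12.44 to 12.50) and 12.0% in XT67E1 (11.98 to 12.02). The heights ranked differently from the breadths. At 10 times the library median or more there were 731 bins in LF2, 574 in E14 and 80 in XT67E1, the deepest library. LF2 held 87.9% of the rich bins of XT67E1 and 89.4% of those of E14. XT67E1 and E14 overlapped less: their 4047 common bins were 49.5% of the XT67E1 set and 66.5% of the E14 set, and all but 39 of them were also rich in LF2.

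**Figure D1:**
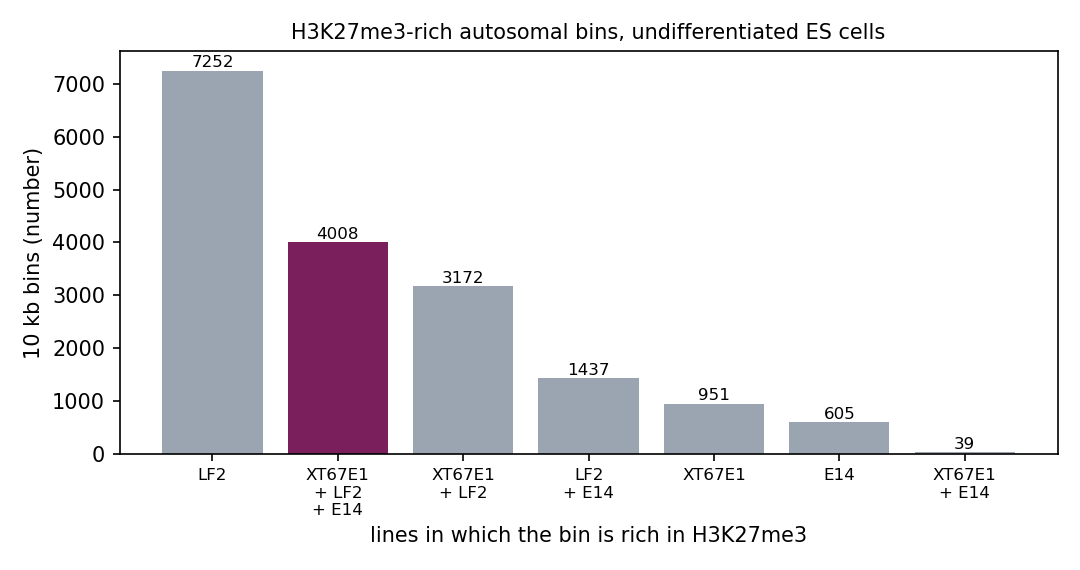
Number of 10 kb autosomal bins (y axis) by the lines in which they were rich in H3K27me3 (x axis), undifferentiated cells. The dark bar is the set rich in all 3 lines, 4008 bins; the set rich in LF2 alone is larger, with 7252 bins, and the set rich in XT67E1 and E14 alone holds 39.

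The bins rich in all 3 lines numbered 4008, or 1.69% of 237078 covered bins. They made up 49.1% of the rich bins of XT67E1, 25.3% of those of LF2 and 65.8% of those of E14. Joined over gaps of 1 bin, they formed 2751 domains. Most were short: 2038 domains were a single bin, 77 spanned 5 bins or more and 13 spanned 10 bins or more. In the shared bins the median level was 15.1 RPM in XT67E1, 21.8 RPM in LF2 and 18.8 RPM in E14, against 3.37, 2.98 and 3.40 RPM in the 219614 bins rich in no line. The highest and the lowest line differed by less than 2-fold in 3350 of the shared bins (83.6%) and by more than 3-fold in 40. LF2 was the highest line in 2303 shared bins, E14 in 1539 and XT67E1 in 166. These levels come from the libraries that chose the bins and are given as a description.

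The longest shared domain spanned 250 kb at chr15:102730001-102980000. E14 held 34.9 RPM per bin there (33.8 to 36.1), LF2 29.1 (28.1 to 30.1) and XT67E1 21.8 (21.2 to 22.5). The domain at chr6:52100001-52280000 held 27.9 RPM per bin in XT67E1, 46.4 in LF2 and 48.2 in E14. That at chr11:96120001-96280000 held 25.8, 36.5 and 41.6 RPM per bin in the same order. In these 3 domains XT67E1 was the lowest line and E14 the highest, and the counting intervals of XT67E1 did not overlap those of the other lines. The domain at chr2:74480001-74610000 had the same order of lines: E14 held 49.6 RPM per bin (47.8 to 51.5), LF2 38.9 (37.3 to 40.6) and XT67E1 28.4 (27.4 to 29.4). In RefSeq's table for the GRCm38 build, the Hoxa, Hoxb, Hoxc and Hoxd clusters lie on chromosomes 6, 11, 15 and 2. Whether the 4 domains described here cover those clusters was not tested, since the builds differ.

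A further pair of long domains had LF2 as the highest line. At chr7:150490001-150690000, a domain of 200 kb, LF2 held 28.6 RPM per bin (27.5 to 29.8), E14 22.2 (21.2 to 23.2) and XT67E1 17.0 (16.4 to 17.7). At chr1:75350001-75490000 the order was the same, with 23.2, 19.1 and 15.0 RPM per bin. The remaining domains of 110 to 120 kb had close levels in LF2 and E14. The domain at chr2:33390001-33510000 held 29.3 RPM per bin in LF2 (27.8 to 30.8) and 30.3 in E14 (28.8 to 31.8), against 20.7 in XT67E1. The domain at chr7:86640001-86750000 held 19.1, 32.9 and 33.7 RPM per bin in XT67E1, LF2 and E14. The domain at chr4:115550001-115660000 held 15.6, 23.4 and 24.5 RPM per bin. XT67E1 was thus the lowest of the 3 lines in each of the 9 longest domains, E14 was the highest in 7 and LF2 in 2.

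**Figure D2:**
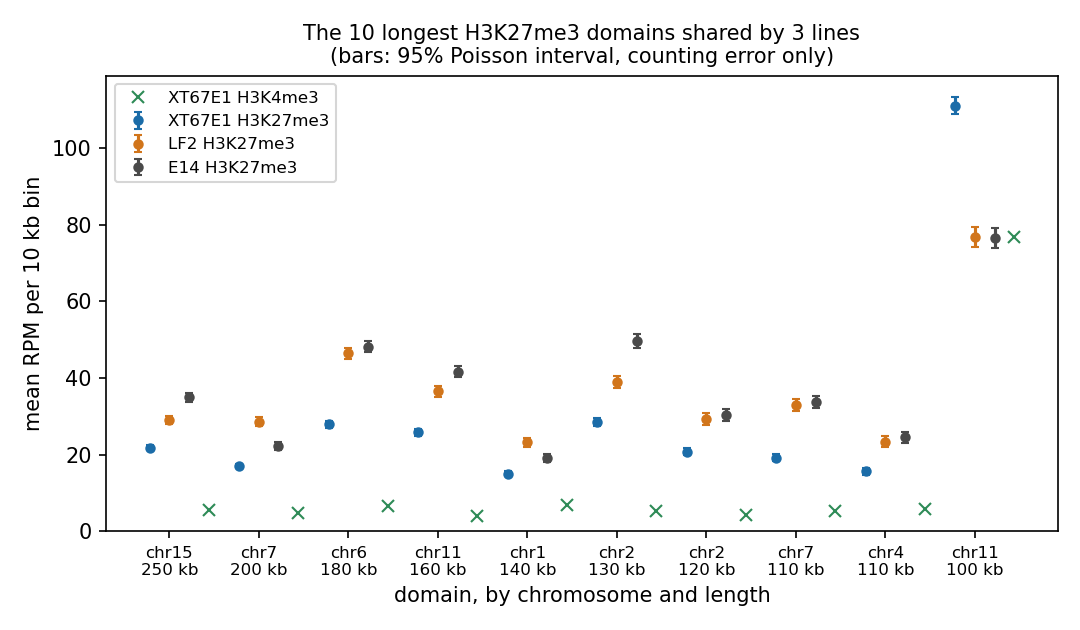
Mean RPM per 10 kb bin (y axis, from 0) in the 10 longest domains rich in all 3 undifferentiated lines, labelled by chromosome and length; circles are H3K27me3 in each line with 95% Poisson intervals, crosses are H3K4me3 in XT67E1. XT67E1 sits below LF2 and E14 in the first 9 domains, and the last one, at 100 kb, is high in both marks.

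The tenth domain was of another kind. At chr11:3000001-3100000 XT67E1 was the highest line, at 111 RPM per bin (109 to 113), with LF2 at 76.8 (74.2 to 79.5) and E14 at 76.5 (73.9 to 79.1). H3K4me3 of XT67E1 was also high there, at 23.6 times the median bin of its library, against 1.26 to 2.09 times in the other 9 domains. The single bins with the highest lowest-line level were all of this kind. They lay at chr2:98500001-98510000, chr17:39980001-39990000, chr9:3020001-3030000 and in 7 bins of chr11:3030001-3100000, with H3K4me3 at 27.6 to 108 times its median. The bin on chromosome 2 held 159 RPM in XT67E1, 227 in LF2 and 268 in E14. High counts in libraries of different marks mean that these bins cannot be read as Polycomb domains from the counts, and whether repeated sequence gave them was not tested.

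Among shared bins that were not rich in H3K4me3, a selection added after the values were seen, the bin whose lowest line was highest was chr8:123600001-123610000. E14 held 84.5 RPM there (76.2 to 93.6), LF2 66.5 (59.0 to 74.6) and XT67E1 50.7 (45.9 to 55.9). Next came chr2:33490001-33500000, inside the 120 kb domain above, with 86.8, 65.3 and 43.8 RPM. In the same order, chr2:74510001-74520000 held 56.7, 42.9 and 41.3 RPM and chr11:96150001-96160000 held 65.5, 50.2 and 41.3 RPM, each inside a long domain described above. The bin chr16:18580001-18590000 had the widest spread of the first 5, with 40.5 RPM in XT67E1, 68.5 in LF2 and 109 in E14.

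H3K4me3 of XT67E1, which the selection did not use, was unevenly spread over the classes of rich bins. Of all covered bins 4.82% were rich in H3K4me3 by the same rule. Of the shared bins 753 were (18.8%). The share was highest where E14 was rich: 268 of the 605 bins rich in E14 alone (44.3%) and 30.7% of the bins rich in LF2 and E14. It was lowest in the bins rich in XT67E1 alone, at 2.84%, and it was 6.34% in those rich in LF2 alone. H3K4me3 was measured in XT67E1 only, so these shares do not show bivalent chromatin in LF2 or E14. Reads in H3K4me3-rich bins were 5.47% of the autosomal H3K27me3 reads in XT67E1, 7.15% in LF2 and 7.78% in E14, and the part of this in the shares above was not tested.

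The libraries that played no part in choosing the shared bins found most of them rich as well. In EBs 84.4% of the shared bins were rich in XT67E1, 86.0% in LF2 and 86.2% in E14. After atRA 92.9% were rich in XT67E1. Bins rich in no line were rich in 0.0733% (XT67E1), 0.557% (LF2) and 0.776% (E14) of cases in EBs. In EBs the classes rich in a single line were found again far less often. Of the 951 bins rich in XT67E1 alone 9.57% were rich in its EBs, but 56.2% were rich in XT67E1 after atRA. That atRA library was rich in 29.4% of the bins rich in LF2 alone and 14.7% of those rich in E14 alone. It was rich in 0.839% of the bins rich in no line, and in 11491 bins in all. For the 7252 bins rich in LF2 alone the share in its own EBs was 18.0%, and for the 605 rich in E14 alone 40.0%. The first class was found more often in EBs of LF2, with 181 bins, than in those of XT67E1 (91) or E14 (80). The LF2 class had 1308 bins rich in EBs of LF2, 1221 in those of E14 and 375 in those of XT67E1. The E14 class had 242 in EBs of E14, 126 in those of LF2 and 68 in those of XT67E1. Chromosome 8 held 47.1% of the bins rich in XT67E1 alone, and its density is described with the other steps below. In the 9 longest domains the level in EBs exceeded that of undifferentiated cells in 8 domains in XT67E1, in 1 in LF2 and in 7 in E14. For chr6:52100001-52280000 the EB levels were 28.9 RPM per bin in XT67E1, 32.4 in LF2 and 61.7 in E14.

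Across bins, XT67E1 and LF2 were the most alike pair. Over 214679 bins with at least 20 reads in the pair, Pearson's r of the log2 levels was 0.78 and Spearman's rho 0.75. For XT67E1 and E14 r was 0.66 and rho 0.63 over 219878 bins, and for LF2 and E14 r was 0.66 and rho 0.56 over 189619 bins. These are descriptions across bins, which share library, depth, mappability and base composition. Depth moved the values: with XT67E1 thinned to the read number of the other lines, r was 0.71 with LF2 and 0.58 with E14. In 50 kb bins r rose to 0.91 (XT67E1 and LF2), 0.85 (XT67E1 and E14) and 0.88 (LF2 and E14). In 100 kb bins it was 0.93, 0.88 and 0.92. The lowest r in 50 kb and 100 kb bins was thus that of XT67E1 and E14. In 10 kb bins the pairs with E14 had near-equal r at full depth. With XT67E1 thinned, XT67E1 and E14 had the lowest r there too, at 0.58 against 0.66 for LF2 and E14. Over the 17464 bins rich in at least 1 line, r was 0.71 for XT67E1 and LF2, 0.70 for LF2 and E14 and 0.53 for XT67E1 and E14. Within a line, r between the undifferentiated and EB libraries was 0.81 for XT67E1, 0.69 for LF2 and 0.66 for E14. The correlation between XT67E1 and LF2 was therefore above that between the conditions within LF2 or within E14, with the unequal depths of these pairs as given.

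Single bins were called different between a pair of lines where their RPM differed by 2-fold or more and the exact conditional binomial interval of the ratio excluded 1. There is no replicate check on these calls, and no p-value was computed. XT67E1 was higher than LF2 in 7659 bins (3.57% of 214679) and lower in 3470 (1.62%). XT67E1 was higher than E14 in 7707 bins (3.51% of 219878), of which 2333 were on chromosome 8, and lower in 8810 (4.01%). LF2 was higher than E14 in 6675 bins (3.52% of 189619) and lower in 8509 (4.49%). The direction of these counts depended on the scaling. Scaling to the reads of bins at or below the median count moved all log2 ratios by -0.23 for XT67E1 over LF2, by 0.10 for XT67E1 over E14 and by 0.33 for LF2 over E14. It gave 3145 higher and 9261 lower bins for XT67E1 against LF2, 10906 and 6232 for XT67E1 against E14, and 18748 and 2613 for LF2 against E14. Median-of-ratios scaling moved the ratios by -0.11, -0.0050 and 0.10, and gave 4778 and 5472, 7439 and 8984, and 9462 and 5872 bins. Which line of a pair had more such bins therefore cannot be read from the counts.

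In the shared bins, with all autosomal reads as the scale, the differences ran largely one way, against the background shares just given. Of the 4008 shared bins, 227 were called higher in LF2 than in XT67E1 and 0 lower. E14 was higher than XT67E1 in 431 and lower in 5. LF2 was higher than E14 in 108 and lower in 19. These counts come from the libraries that chose the bins.

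Bins in which 1 line stood apart from both others, in the same direction, were fewer. E14 was higher than each other line in 2429 bins (1.28% of the bins tested) and lower in 2507 (1.33%). LF2 was higher in 455 (0.242%) and lower in 1588 (0.846%). XT67E1 was higher in 769 (0.361%) and lower in 1097 (0.515%). The balance of higher and lower bins depended on the scaling here too: background scaling gave 2659 higher and 412 lower in LF2, and 817 and 5312 in E14. Chromosome 8 held 324 of the bins higher in XT67E1 and 704 of those lower in E14. Chromosome 14 held 106 of the bins higher in LF2 and 172 of those lower in E14. As a background, chromosome 8 has 128 and chromosome 14 has 123 of the 2410 windows of 1 Mb used below. The 172 bins lower in E14 on chromosome 14 are close to that background. H3K4me3-rich bins were 39.4% of those lower in XT67E1 and 21.9% of those higher in E14, but 0.650% of those higher in XT67E1 and 3.03% of those lower in E14.

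Most of these calls did not recur in the EB libraries of the same lines, which the calls did not use. Of the bins lower in E14, 168 were called the same way in EBs (6.80% of the 2470 tested there), where 1.16% of all bins were called. Of those higher in E14, 54 recurred (2.72%, background 0.439%). For XT67E1, 12 of the higher bins recurred (1.61%, background 0.32%) and 14 of the lower bins (1.30%, background 0.204%). For LF2, 6 of the higher bins recurred (1.39%, background 0.345%) and 7 of the lower bins (0.477%, background 0.348%). The direction against each other line was kept in EBs by 64.0% of the bins lower in E14, where 36.7% of all bins had that direction, and by 32.7% of the bins lower in LF2, where 29.6% had it. The other 4 lists lay between, from 48.2% to 51.4%. Of all bins tested in EBs, 32.9% had the direction of the list higher in XT67E1 and 30.5% that of the list lower in XT67E1. For the lists higher in LF2 and higher in E14 these shares were 36.7% and 35.0%.

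**Figure D3:**
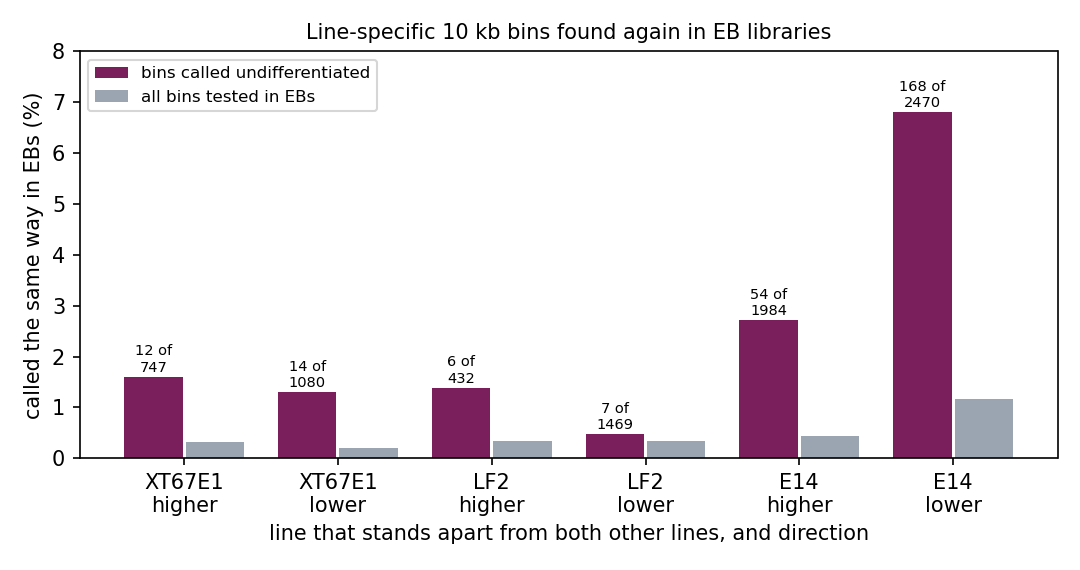
Share of line-specific 10 kb bins called the same way in EB libraries (y axis, percent, from 0) for each line and direction (x axis); dark bars are bins called in undifferentiated cells, grey bars are all bins tested in EBs. The largest share is 168 of 2470 bins lower in E14, and the bins lower in LF2 lie near the grey bar.

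The longest line-specific locus was a loss in XT67E1. At chr2:30500001-30670000, a stretch of 170 kb, all 17 bins were called lower in XT67E1. The stretch held 361 reads in XT67E1 (45.0 RPM), 810 in LF2 (186 RPM) and 993 in E14 (225 RPM). The log2 ratio was -2.04 against LF2 (-2.23 to -1.86) and -2.32 against E14 (-2.50 to -2.15), while LF2 and E14 differed by -0.28. After atRA the level in XT67E1 was 38.6 RPM, and in EBs it was 86.6 RPM, against 143 in LF2 and 144 in E14. The deficit of XT67E1 in EBs was thus smaller, at -0.72 against LF2 and -0.73 against E14. H3K4me3 over the stretch was 81.1 RPM in XT67E1, spread over the 17 bins. Of the 10 named bins lower in XT67E1, 7 lay in or beside this stretch on chromosome 2.

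The other 3 named bins lower in XT67E1 were rich in H3K4me3. The bin chr1:121310001-121320000 held 19 reads in XT67E1, 92 in LF2 and 231 in E14, or 2.37, 21.1 and 52.4 RPM. In EBs it held 170, 121 and 280 reads, or 21.4, 28.1 and 63.3 RPM, and XT67E1 was still the lowest line. Its log2 ratio against E14 was -4.40 (-5.22 to -3.79) undifferentiated and -1.56 in EBs. The bin chr11:101640001-101650000 held 15, 43 and 60 reads undifferentiated (1.87, 9.85 and 13.6 RPM). In EBs it held 89, 58 and 120 reads (11.2, 13.5 and 27.1 RPM). At chr5:120130001-120140000 the reads were 23, 67 and 202 undifferentiated and 137, 54 and 168 in EBs. In these 3 bins XT67E1 was below LF2 when undifferentiated and held more reads in its own EBs.

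Of the 10 named bins higher in XT67E1, 7 lay on chromosome 8, which held 324 of all 769 such bins. The first was chr8:15890001-15900000, with 63 reads in XT67E1, 6 in LF2 and 5 in E14, or 7.85, 1.37 and 1.13 RPM. In EBs the levels were 4.53, 4.64 and 3.85 RPM, with log2 ratios of -0.07 and 0.19. In 5 of the 7 named bins on chromosome 8 XT67E1 was above both other lines in EBs as well. At chr8:16470001-16480000 the EB log2 ratios were 0.78 against LF2 and 1.40 against E14. These 7 bins lie at 3 to 80 Mb. There XT67E1 was above each other line in EBs in all 76 windows of 1 Mb described below. The direction in EBs is therefore not particular to the named bins. Away from chromosome 8, chr19:20300001-20310000 held 63, 10 and 9 reads, with EB log2 ratios of -0.06 against LF2 and -0.03 against E14.

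LF2 had a single bin that stood far above the rest. At chr6:41570001-41580000 LF2 held 142 reads (32.5 RPM), XT67E1 36 (4.49 RPM) and E14 23 (5.21 RPM). The log2 ratio was 2.83 against XT67E1 (2.32 to 3.43) and 2.59 against E14 (2.00 to 3.35). In EBs the 3 lines held 31, 23 and 24 reads, or 3.90 RPM in XT67E1, 5.34 in LF2 and 5.43 in E14, with no excess in LF2. Of the 10 named bins higher in LF2, 4 lay on chromosome 14. The longest such locus, chr14:78670001-78720000, held 348 reads in XT67E1, 521 in LF2 and 164 in E14. That is 43.4, 119 and 37.2 RPM, with log2 ratios of -1.46 for XT67E1 over LF2 (-1.66 to -1.26) and 1.68 for LF2 over E14 (1.43 to 1.95). In EBs the excess of LF2 was 0.39 over E14 and the ratio of XT67E1 over LF2 was -0.44. Only 3 bins lower in LF2 had enough reads to be named. The first, chr7:137760001-137770000, held 53, 11 and 43 reads undifferentiated, or 6.61, 2.52 and 9.75 RPM in XT67E1, LF2 and E14. In EBs it held 70, 39 and 26 reads, or 8.80, 9.05 and 5.88 RPM, and LF2 was the highest line.

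Some of the named bins higher in E14 stood apart in both conditions. At chr11:120520001-120530000 the reads were 17 in XT67E1, 25 in LF2 and 133 in E14, and 82, 94 and 243 in EBs. At chr4:82150001-82160000 they were 17, 20 and 87, and 52, 22 and 93 in EBs. At chr11:97490001-97500000 they were 15, 9 and 46, and 53, 18 and 102 in EBs. E14 was the highest line in each of these 3 bins in both conditions, and each was rich in H3K4me3 in XT67E1. In other bins the lead of E14 was smaller in EBs. The bin chr17:46160001-46170000 held 26 reads in XT67E1, 22 in LF2 and 155 in E14, a log2 ratio of 3.39 over XT67E1 (2.83 to 4.10). Its EB levels were 4.02, 3.25 and 4.52 RPM. The bin chr4:55540001-55550000 held 2.49, 3.21 and 22.9 RPM undifferentiated, and 13.0, 9.05 and 15.8 RPM in EBs.

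Of the 10 named bins lower in E14, 6 lay on chromosome 8, which held 704 of all 2507 such bins. The longest locus, chr8:122250001-122380000, held 1255 reads in XT67E1, 775 in LF2 and 282 in E14, or 156, 178 and 63.9 RPM over 130 kb. In EBs it held 128, 149 and 71.0 RPM. E14 was the lowest line by 1.29 (log2, 1.10 to 1.48) against XT67E1 and by 1.47 (1.28 to 1.68) against LF2, and in EBs by 0.85 and 1.07. Away from chromosome 8, chr7:134750001-134760000 held 207 reads in XT67E1, 131 in LF2 and 25 in E14. Its EB reads were 147, 47 and 14, so that E14 was the lowest line in both conditions.

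What a line kept in both conditions was tested with limma over the 6 H3K27me3 libraries, with line and condition as terms. Of 216287 bins with at least 60 reads, 800 (0.37%) had a line effect at a Benjamini-Hochberg adjusted p under 0.05, in 691 loci. The fit leaves 2 residual degrees of freedom per bin and takes most of its precision from the spread pooled over bins, so its p-values measure the spread between these 6 libraries. Most calls set E14 against the others. Over all tested bins XT67E1 was higher than E14 in 501 (0.232%) and lower in 377 (0.174%), and LF2 was higher than E14 in 355 (0.164%) and lower in 65 (0.0301%). Between XT67E1 and LF2 limma called 0 bins in either direction (0.0%). At an unadjusted limma p under 0.05 there were 11419 such bins of the 216287 tested. That is near the share of 0.05 that passes this cut where lines do not differ. The spread left in the fit also holds differences between lines that changed with condition. The share therefore does not show that XT67E1 and LF2 are alike. With limma voom 6 bins were called at the adjusted cut, all of them lower in XT67E1. Without the LF2 EB library 171 bins were higher and 96 lower in XT67E1 than in LF2, without the E14 EB library 13 and 39, and without the XT67E1 EB library 1 and 26. Among the 800 bins, E14 was lower than both other lines in 146 and higher than both in 32. The count depended on single libraries: it was 4226 without the LF2 EB library, 1937 without the E14 EB library and 579 without the XT67E1 EB library. In these 3 fits the spread was the same for all bins of a given level. Without the condition term 10 bins were called. Of 8804 bins that stood apart in a single undifferentiated line, 550 were among the 800. That is 6.25% of the former, beside 0.37% of all tested bins, and 68.8% of the latter. The fit includes the 3 undifferentiated libraries that made the 8804 calls, so this overlap is a description and no independent check.

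The bins with a line effect fell into unlike groups by position and by H3K4me3. Chromosome 8 held 344 of the 800 (43.0%, against 5.50% of tested bins), and E14 was the lowest line in 336 of these. Chromosome 14 held 63, where it has 123 of the 2410 windows of 1 Mb used below, and 393 lay on other chromosomes. With each chromosome centred on its own median ratio, 194 bins were called. Among the 800, E14 was higher than XT67E1 in 245. Of these 245 bins, 171 were rich in H3K4me3 in XT67E1 (69.8%, against 5.23% of tested bins), and the median H3K27me3 level was 3.86 RPM in undifferentiated XT67E1 and 13.8 RPM in E14. E14 was lower than XT67E1 in 329 bins, of which 250 were on chromosome 8 and 22 were rich in H3K4me3 (6.69%). H3K4me3-rich bins took up a larger share of all H3K27me3 reads in E14 than in XT67E1 in EBs too, at 7.74% and 6.49%, and the part of that in this pattern was not tested.

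Of the 10 called bins with the largest range between lines, 6 had E14 as the highest line and XT67E1 as the lowest, and 8 were rich in H3K4me3 in XT67E1. The bin chr11:120520001-120530000, whose reads are given above, differed by -3.08 between XT67E1 and E14 (log2, SE 0.30, limma adjusted p of this contrast 5.1e-08). At chr4:88940001-88950000 the levels were 5.49 RPM in XT67E1, 8.25 in LF2 and 24.5 in E14, and in EBs 7.42, 13.2 and 46.6 RPM. XT67E1 after atRA held 2.12 RPM there. The limma estimates were -2.39 for XT67E1 over E14 and -1.67 for LF2 over E14 (SE 0.29 each, adjusted p of the line effect 2.4e-05). E14 was above the other lines in both conditions in these bins. The bin chr4:107890001-107900000 held 1.37, 3.90 and 6.12 RPM undifferentiated and 3.40, 6.03 and 27.8 RPM in EBs, with -2.54 between XT67E1 and E14 (SE 0.33, limma adjusted p of this contrast 2.3e-05).

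The remaining named bins had other orders. At chr11:60440001-60450000 E14 held 0 reads undifferentiated and 1 in EBs. XT67E1 held 22 and 18 there, and LF2 18 and 10. The interval for 0 reads in E14 reaches 0.836 RPM, against 2.74 RPM in XT67E1 (1.72 to 4.15) and 4.12 RPM in LF2 (2.44 to 6.52). The limma adjusted p of its line effect was 0.015, and the bin fell below the read minimum without the XT67E1 or the LF2 EB library. Whether the sequence is absent from E14 was not tested. At chr1:135590001-135600000 LF2 was the low line, with 5 reads undifferentiated and 1 in EBs, against 21 and 26 in XT67E1 and 18 and 21 in E14 (limma adjusted p of the line effect 0.012). The bins chr8:87660001-87670000 and chr8:112260001-112270000 were low in E14, with 3 reads each undifferentiated and 3 and 2 in EBs. Without the XT67E1 EB library the last 3 bins lost their call (limma adjusted p of the line effect 0.21, 0.12 and 0.26), and without the LF2 EB library the bins on chromosome 1 and at chr8:112260001 did (0.11 and 0.14). The other 6 named bins were called without each EB library in turn.

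Broad changes of density were sought in 1 Mb windows, over bins rich in no line, so that single Polycomb domains do not enter. The median window held 2702 reads in XT67E1, 1378 in LF2 and 1478 in E14. Windows were joined into segments, and a step is a segment of at least 5 windows whose median log2 ratio lies 0.2 or more from that of all windows. There were 27 steps over the 3 pairs, and in 9 of them the EB libraries differed by 0.2 or more in the same direction. The other 18 were seen in undifferentiated cells alone, such as LF2 over E14 at 3 to 40 Mb on chromosome 9, at -0.26 undifferentiated and -0.05 in EBs. No input library was used here, so DNA copy number and mark density cannot be told apart at any step.

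On chromosome 8 the steps covered the whole chromosome. XT67E1 lay above E14 by 0.56 (log2; 1.48-fold) in undifferentiated cells and by 0.57 (1.49-fold) in EBs, and 127 of 128 windows were above 0 undifferentiated. LF2 had a boundary at 80 Mb, whose place depended on the setting. With all bins used, the step of XT67E1 over LF2 ended at 72 Mb and that of LF2 over E14 was split at 107 Mb. From 3 to 80 Mb LF2 exceeded E14 by a median of 0.18 in both conditions, below the limit for a step, with 61 of 76 windows above 0 undifferentiated and 75 in EBs. XT67E1 exceeded LF2 there by 0.40. From 80 to 132 Mb LF2 exceeded E14 by 0.39 (1.31-fold) undifferentiated and by 0.81 (1.75-fold) in EBs, with all 52 windows above 0 in each condition. Over the same bins of chromosome 8, H3K4me3 of XT67E1 was 1.46 times its mean on the autosomes other than 6, 8 and 14, beside 1.43 times for H3K27me3. The parts were less alike. H3K4me3 was 1.28 times at 3 to 80 Mb and 1.77 times at 80 to 132 Mb, beside 1.35 and 1.55 for H3K27me3. No other line has an H3K4me3 library to set beside these values.

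Chromosome 14 held a step of LF2 alone. From 63 to 121 Mb LF2 exceeded E14 by 0.41 (1.32-fold) undifferentiated and by 0.63 (1.55-fold) in EBs. XT67E1 lay below LF2 by 0.36 from 61 to 93 Mb and by 0.32 from 100 to 121 Mb, and by 0.62 in both parts in EBs. Against E14, XT67E1 differed there by 0.01 and 0.17. The part in between, 93 to 100 Mb, was high in XT67E1 as well. Over its 7 windows XT67E1 exceeded E14 by 0.53 (1.45-fold) undifferentiated and by 0.41 (1.33-fold) in EBs. Its density relative to the autosomes other than 6, 8 and 14 was 1.32 in XT67E1 undifferentiated, 1.33 after atRA and 1.18 in EBs. It was 1.24 and 1.37 in LF2 and 0.881 and 0.870 in E14, undifferentiated and in EBs. On the same scale XT67E1 had an H3K27me3 density of 0.964 before this part, at 61 to 93 Mb, and 0.998 after it, at 100 to 121 Mb. Its H3K4me3 density was 0.918 within the part, 0.860 before it and 0.715 after it. Beyond 121 Mb the median of LF2 over E14 was -0.26 undifferentiated and -0.35 in EBs over 5 windows. The windows were mixed, with 2 of the 5 above 0 undifferentiated and 1 in EBs.

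**Figure D4:**
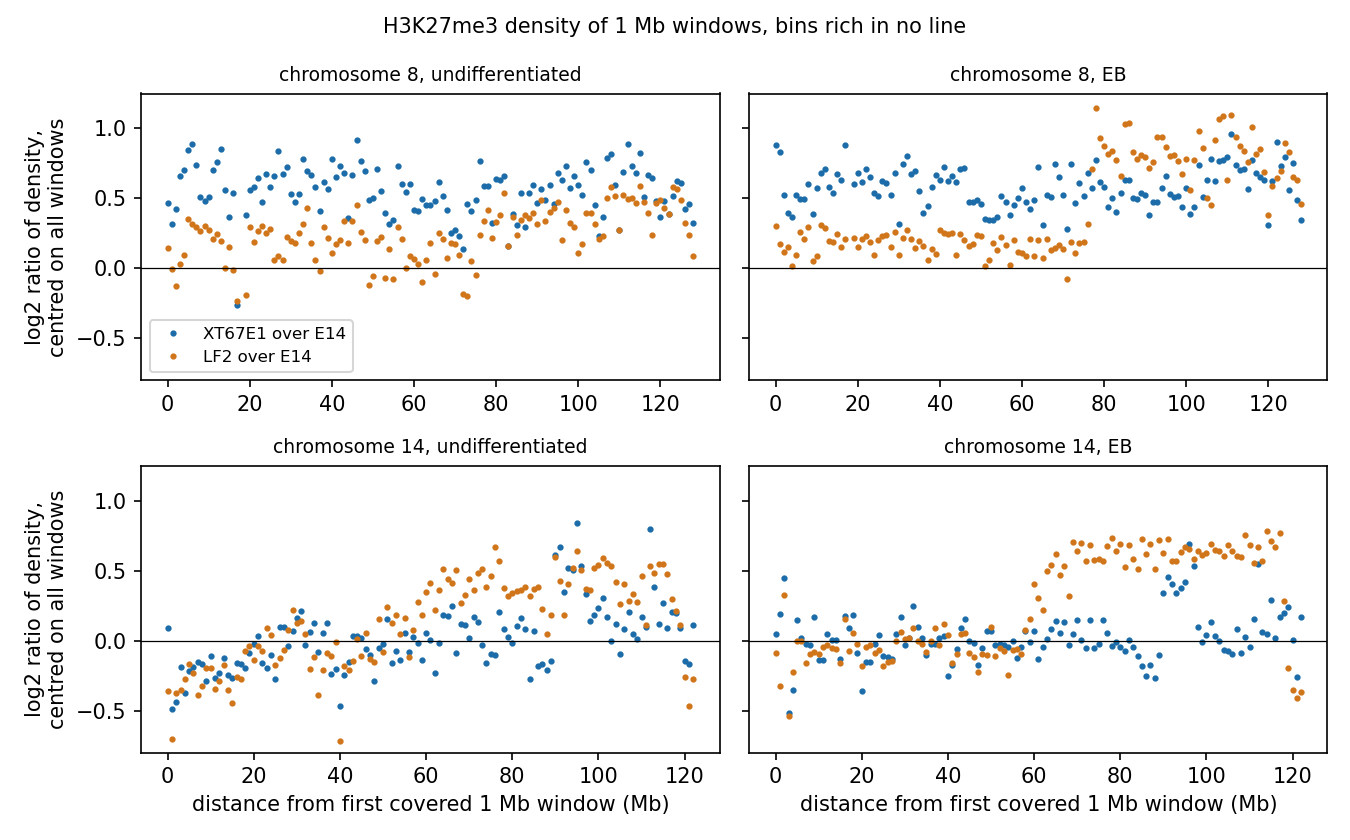
Log2 ratio of H3K27me3 density over E14 in 1 Mb windows (y axis, centred on all windows) against the distance from the first covered window (x axis, Mb) for chromosomes 8 and 14, undifferentiated (left) and EB (right); each point is a window. XT67E1 lies above 0 along chromosome 8 with a median of 0.56, and LF2 rises in the distal part of both chromosomes, more in EBs than in undifferentiated cells.

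A smaller step lay at the end of chromosome 6. From 134 to 150 Mb LF2 exceeded E14 by 0.36 (1.28-fold) undifferentiated and by 0.31 (1.24-fold) in EBs. Over the rest of the chromosome, 3 to 134 Mb, the difference was 0.13 undifferentiated and 0.01 in EBs. XT67E1 lay below LF2 by 0.27 at 134 to 150 Mb, where LF2 had 1.34 times its density on the autosomes other than 6, 8 and 14. Apart from chromosomes 8 and 14, the medians of the other 17 autosomes ran from -0.16 to 0.08 for XT67E1 over LF2, from -0.06 to 0.05 for XT67E1 over E14 and from -0.07 to 0.15 for LF2 over E14, with chromosome 6 at the LF2 end of each range that includes LF2.

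Focal losses, runs of at least 3 bins in which a line held at most 0.2 of the RPM of each other line, were not found in any line. With a limit of 0.3 there were 5 runs. Of these, 3 belonged to XT67E1 and lay at chr2:30450001-30480000, chr2:30530001-30590000 and chr2:30620001-30670000, in and beside the 170 kb stretch described above. LF2 had the other 2. At chr9:6860001-6890000 it held 5 reads, against 50 in XT67E1 and 47 in E14, and at chr9:38700001-38730000 it held 4, against 31 and 30. In EBs LF2 held 19 and 16 reads in these runs, where XT67E1 held 52 and 38 and E14 held 19 and 26.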

How the data were processed

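The deposited files list read positions, intervals of 200 bp with no strand and no value of their own, on the mm9 build per the submitters' processing notes. Which aligner and filters the authors used is not given in the sources used here. Within each file every interval is distinct. The labels assign each library to its group. Midpoints were counted in 10 kb bins and scaled to autosomal reads. Log2 ratios used counts plus 1 read, which understates the change of low bins. Bins needed 20 reads summed over a pair. Between single libraries no test was made. The 6 libraries of 3 lines in 2 conditions were fitted with limma 3.58.1 in R 4.3.3 (log2 RPM, intensity trend, at least 60 reads, Benjamini-Hochberg adjusted p under 0.05, two-sided). Scripts were tested on simulated data. The members, the lists and the rules were chosen with earlier results of these data known. Named are the 10 longest shared domains, the 10 highest shared bins, up to 10 line-specific bins per line and direction with 50 reads in each pair, the 10 limma bins of largest range and the density steps, in part by count. The gene lists planned for an mm9 annotation were not used here. Nothing says that the libraries of a line come from separate cultures.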

Additional observations from a re-analysis of the deposited data

Results flagged for a closer look

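Undifferentiated E14, the male line, held 912 reads on Y, a chromosome that the comparisons do not use, where XT67E1 held 113 and LF2 124, although E14 has no more reads than LF2. In EBs the reads on Y were 674 in E14, 119 in XT67E1 and 119 in LF2.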

How the results depend on the processing

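No named bin or step reversed its direction under the alternatives run for it. With a pseudocount of 5 reads, 4692 (XT67E1 and LF2), 10868 (XT67E1 and E14) and 8721 (LF2 and E14) bins differed, and line-specific bins numbered 77 higher in XT67E1, 299 higher and 283 lower in LF2, and 1577 higher and 998 lower in E14. In 50 kb bins 331, 700 and 923 bins differed, with 17 and 30 (XT67E1 higher and lower), 9 and 80 (LF2) and 66 and 78 (E14) line-specific. In 5 kb bins 26435 differed between XT67E1 and E14, and 1793 and 1745 (XT67E1), 1733 and 319 (LF2) and 4478 (lower in E14) were line-specific. Background scaling gave 504 bins higher in XT67E1, 2659 and 412 for LF2 and 817 and 5312 for E14. Median-of-ratios scaling gave 948 and 879 for LF2. Centring each chromosome gave 504 bins higher in XT67E1, thinning XT67E1 gave 1225, and leaving out chromosomes 8 and 14 gave 422, with 1631 lower in E14. Shared bins and domains numbered 12338 and 6619 at 2 times the library median, 1097 and 785 at 5 times, and 8240 and 4760 in 5 kb bins. Pearson's r was 0.62 (XT67E1 and LF2), 0.43 (XT67E1 and E14) and 0.48 (LF2 and E14) in 5 kb bins and 0.91, 0.85 and 0.88 in 50 kb bins. It was 0.71 and 0.58 with XT67E1 thinned and 0.71 and 0.53 in rich bins for the XT67E1 pairs, and 0.76 and 0.76 with no read minimum for the E14 pairs. Density steps numbered 49 over all bins. At a threshold of 0.3 there were 4, of which 3 held in EBs. The chromosome 14 steps then ran from 51 to 126 Mb (XT67E1 and LF2) and from 54 to 121 Mb (LF2 and E14). On chromosome 8 only the step of XT67E1 over E14 was called at that threshold. Runs of at least 2 bins gave 5 focal losses, and a limit of 0.3 gave 5. limma called 10 bins without the condition term, 1328 with a pseudocount of 5 reads, 194 with centred chromosomes, 4226 without the LF2 EB library and 1937 without the E14 EB library. Of the named limma bins, 2 kept their call without the condition term and 8 with centred chromosomes. The 3 named bins lower in LF2 lost their call with a pseudocount of 5 reads, and 2 of them also under background scaling, median-of-ratios scaling and centred chromosomes. The other 74 alternative values of summary results moved by at most 1.5 times, or for r by under 0.05, the windows of 2 Mb in segments of at least 3 windows among them. This compares counts, and bins of near-equal lists can differ. With XT67E1 thinned, 471 of the 769 bins higher and 610 of the 1097 lower in XT67E1 were called again. For LF2 318 of 455 higher and 904 of 1588 lower bins were, and for E14 1677 of 2429 and 2089 of 2507. No paired analysis was possible by replicate number because each group holds 1 library, and the condition term of the limma fit served as the block. Depth limits LF2 and E14, with medians of 14 and 16 reads per bin.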
